A study of Mus musculus x Rattus norvegicus with 2 samples.

Results

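Secretory cells of the airway lining were examined among the mouse cells of 2 mouse-rat chimeric lungs at E20.5, late gestation. They were the mouse barcodes with at least 20 unique molecular identifiers (UMIs, each a counted transcript) summed over Scgb3a2, Scgb1a1, Cyp2f2 and Upk3a, and fewer than 10 over the ciliated genes Ccdc153, Tmem212, Dynlrb2, Rsph1 and Tppp3. A mouse barcode had at least 500 genes, at most 20% of UMIs from mitochondrial genes and at least 90% of UMIs from mouse genes. This chose 145 of 16268 mouse barcodes, 71 of 8854 in the mutant library and 74 of 7414 in the control library, out of 18011 barcodes kept and 22047 deposited. They are called secretory barcodes and were set against the other mouse barcodes with at least 2 UMIs of Epcam, an adhesion gene of epithelia, which numbered 1463 in the mutant and 926 in the control library.

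The mutant library came from a lung of mouse cells in an Nkx2-1-/- rat, and the control library from a chimeric lung in a wild-type rat. The strains were C57BL/6 mouse and SD rat in both, and each library was made with the 10x 3' v3 chemistry. The design sets mouse cells that formed a lung in a host lacking Nkx2-1, a transcription factor that lung epithelium needs, against mouse cells that shared a lung with rat cells. There was 1 library per group and barcodes are not replicates, so no difference below had a test or a replicate check, and every interval is 95% and covers counting error only.

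Club cells are the main secretory cells of mouse bronchioles. They release secretoglobins such as Scgb1a1 and Scgb3a2 into the airway fluid, carry enzymes such as Cyp2f2 that act on inhaled compounds, and can renew themselves and give rise to ciliated cells. In the developing airway, Notch signalling steers progenitors toward the secretory fate and away from the ciliated fate, and Scgb3a2 appears earlier than Scgb1a1. Upk3a, a uroplakin, marks a set of club-like cells found near neuroendocrine bodies and at the ends of the bronchioles.

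The libraries held 103627303 UMIs in the mutant and 123047433 in the control, with medians of 10356.5 and 8416 UMIs per kept barcode. Rat Nkx2-1, the gene missing in the mutant host, had 0 UMIs in 79 rat barcodes of the mutant library and 3993 UMIs in 725 rat barcodes of the control library; 3' tags need not cover a deleted part of a gene, so this count does not test the deletion. Rat genes supplied 0.444% of the UMIs of mutant and 0.525% of those of control secretory barcodes. The libraries shared 27 of the kept mouse barcodes and 0 of the secretory ones. Mixed-species barcodes, 57 in the mutant and 882 in the control library, were left out, and 0 and 3 of them reached 20 mouse UMIs of the 4 genes. A transcript listed as EGFP had a UMI in 100% of mutant and 98.6% of control secretory barcodes, and in 98.4% and 99.6% of endothelial barcodes.

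Depth differed in shape between the libraries. Mutant secretory barcodes had between 1294 and 43022 mouse UMIs with a median of 21534, and control ones between 788 and 123937 with a median of 8331. The 10 deepest barcodes held 23.6% of the summed mutant and 55.3% of the summed control UMIs, and 3 mutant and 25 control barcodes had fewer than 5000 UMIs. Sums over barcodes were 1476260 and 1577810 UMIs, so a gene at 10 counts per 1000000 mouse UMIs (CPM) rested on about as many UMIs in either library. A 3' UMI is 1 tag per transcript whatever the transcript's length, so CPM values of different genes were compared without a correction for length. Control sums lean on few deep barcodes, and barcode medians are therefore given beside sums for the main genes.

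Secretory barcodes made up 4.63% (3.63 to 5.80) of the 1534 mutant barcodes that were secretory or Epcam-positive, and 7.40% (5.85 to 9.20) of the 1000 such control barcodes. Of all mouse barcodes they were 0.802% (0.627 to 1.01) in the mutant and 0.998% (0.785 to 1.25) in the control library. These shares depend on depth, because a fixed number of UMIs is reached sooner in a deep barcode, and the order of the libraries was not stable. This holds for the limit on the 4 genes and for that on Epcam, and thinning lowers the counts for both. After thinning to 3000 UMIs the share was 13.7% in the mutant and 7.40% in the control library, and with 5 Epcam UMIs required 9.02% and 9.39%. Just inside the limit, with 20 to 24 UMIs of the 4 genes, lay 4 mutant and 5 control barcodes at median depths of 11912 and 975 UMIs. Just outside it, with 15 to 19, lay 3 mutant and 10 control barcodes at 8540 and 4168 UMIs. Epcam itself fell short of 2 UMIs in 8 mutant and 16 control secretory barcodes.

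The 4 genes that chose the barcodes were present in different proportions in the libraries, which is a description and no finding about the cells chosen by them. Scgb3a2, the early secretoglobin, was at 20159 CPM (19931 to 20389) in mutant and 9041 CPM (8893 to 9191) in control secretory barcodes. Scgb1a1 (ENSMUSG00000024653; mm10 chromosome 19, 9083636 to 9087958), the secretoglobin of mature club cells, was at 20347 CPM (20118 to 20579) in mutant and 608 CPM (571 to 648) in control secretory barcodes. Cyp2f2, a cytochrome P450 of club cells, was at 1211 and 332 CPM, and Upk3a at 826 and 329 CPM. By barcode the median of Scgb3a2 was 17959 CPM in the mutant and 13125 CPM in the control library, while that of Scgb1a1 was 10878 and 233 CPM. The Scgb3a2 ranges of the libraries overlapped over most of their width, whereas no control barcode reached the mutant median of Scgb1a1: the highest was at 9434 CPM.

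Scgb3a2 alone reached 20 UMIs in 62 of 71 mutant and 68 of 74 control barcodes, and Scgb1a1 alone in 57 mutant and 12 control barcodes. Scgb1a1 exceeded Scgb3a2 in 33 of 71 mutant barcodes (46.5%, 34.5 to 58.7) and in 0 of 74 control barcodes (up to 4.86%). A UMI of all 4 genes was found in 44 mutant barcodes (62.0%) and 28 control barcodes (37.8%). At least 20 UMIs of Upk3a were found in 20 mutant and 8 control barcodes. So control barcodes were chosen almost wholly by Scgb3a2, and mutant ones by both secretoglobins.

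**Figure D1:**
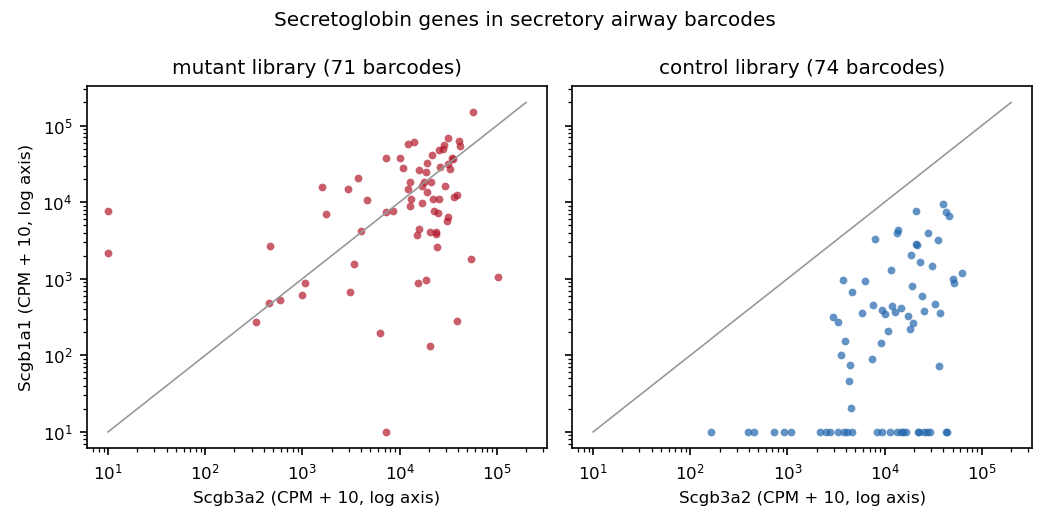
Scgb1a1 (y axis) against Scgb3a2 (x axis), both as CPM + 10 on log axes, with 1 point per secretory barcode, 71 in the mutant library (left) and 74 in the control library (right). The grey line marks equal levels: 33 mutant and 0 control barcodes lie above it, and the control points at the bottom had no Scgb1a1 UMI.

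After each barcode was thinned to 3000 mouse UMIs, which left 68 mutant and 57 control secretory barcodes, Scgb1a1 was found in 97.1% of mutant (89.8 to 99.6; 98.6% unthinned) and 45.6% of control barcodes (32.4 to 59.3; 63.5% unthinned). In endothelial barcodes, which should lack the gene and show the free RNA of each library, it was found in 3.24% of 1914 mutant and 0.110% of 906 control barcodes after thinning, and in 6.75% and 1.198% before, at median depths of 8113 and 7001 UMIs. Scgb3a2 was found in 94.1% of mutant and 94.7% of control secretory barcodes after thinning (97.2% and 100% unthinned), against 1.41% and 2.98% of endothelial barcodes. Both genes chose the barcodes, so their detection above the endothelial share was fixed by the choice.

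The ciliated limit removed more barcodes in the control library. Of barcodes with 20 UMIs of the secretory genes, 7 of 78 in the mutant (8.97%, 3.68 to 17.6) and 28 of 102 in the control library (27.5%, 19.1 to 37.2) had 10 or more ciliated UMIs. The 7 mutant barcodes had 12996 to 37317 UMIs and were rich in ciliated transcripts, with Ccdc153 at 1314 CPM and Foxj1, the master regulator of motile cilia, at 326 CPM, beside Scgb3a2 at 1407 CPM. The 28 control barcodes had 30990 to 175429 UMIs with a median of 102461. They carried Scgb3a2 at 9476 CPM, close to the 9041 CPM of the control secretory barcodes, with Foxj1 at 265 CPM in all 28, Ccdc153 in 19 and the division marker Mki67 in 26. Whether these deep barcodes held 1 cell or several was not tested, and 1 of the 7 mutant and 0 of the 28 control barcodes had a Scrublet doublet score of 0.2 or more.

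**Figure D2:**
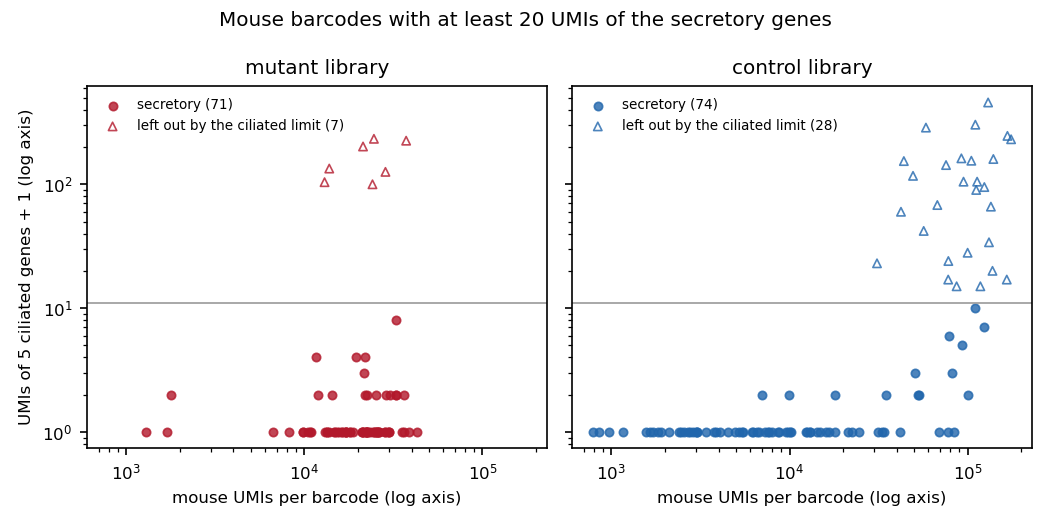
UMIs of the 5 ciliated genes plus 1 (y axis) against mouse UMIs per barcode (x axis), both on log axes, for mouse barcodes with at least 20 UMIs of the 4 secretory genes in the mutant (left) and control library (right). Filled circles are the 71 and 74 secretory barcodes, open triangles the 7 and 28 left out by the ciliated limit (grey line), and the control triangles all lie at 30990 UMIs or more.

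All of these barcodes had enough Epcam to stand among the other Epcam-positive barcodes, and in the control library they held nearly all of its secretoglobin. With them, Scgb3a2 was at 25.4 CPM in other Epcam-positive barcodes of the mutant and 820.5 CPM in those of the control library, and without them at 16.3 and 11.2 CPM. Differences between secretory and other Epcam-positive barcodes of the control library are therefore smaller than they would be against alveolar barcodes alone. Without these barcodes and the other ciliated ones, the control log2 difference was 6.00 in place of 3.11 for Hp, 3.76 in place of 2.88 for Krt15 and 4.11 in place of 2.86 for Cbr2. The mutant log2 difference was then 7.01 in place of 5.71 for Hp, 6.27 in place of 6.25 for Krt15 and 4.75 in place of 4.72 for Cbr2.

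The label was checked against 8 further club genes, of which 7 were measured and Cyp4b1 was not. Cbr2, Hp, Aldh1a1, Gsta4 and Ces1d were at least 2-fold higher in secretory than in other Epcam-positive barcodes of both libraries. Fmo2 and Chad were so in the mutant library, but in the control library they had under 20 UMIs. Of the basal genes, Krt15 was high while Krt5, Krt14 and Trp63 did not reach 10 CPM. Neuroendocrine genes summed to 10.2 CPM in mutant and 55.8 CPM in control secretory barcodes, and goblet genes Muc5ac, Muc5b, Spdef, Agr2 and Tff2 did not reach 10 CPM.

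Over all genes, secretory barcodes were compared with other Epcam-positive barcodes of the same library by the log2 difference of (CPM + 10), with its 95% half-width. A gene was counted when it was at least 2-fold apart, with at least 100 CPM and 20 UMIs on the higher side. In the mutant library 113 of 1690 genes were higher (6.69%) and 211 lower (12.5%), and in the control library 53 of 1705 were higher (3.11%) and 66 lower (3.87%). Among the higher genes 39 were the same, 34.5% of the mutant and 73.6% of the control ones, and among the lower genes 47, 22.3% and 71.2%. The barcodes were chosen by secretory genes, so genes that go with them had to differ and these counts carry no test.

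Krt15 led in the mutant library. It encodes a keratin known from basal cells (ENSMUSG00000054146; chromosome 11, 100131758 to 100135928), and was at 1147 CPM in secretory and 5.21 CPM in other Epcam-positive barcodes of the mutant library (log2 difference 6.25 ± 0.11), and at 387 and 43.8 CPM in the control library (2.88 ± 0.13). A UMI of it was found in 64 of 71 mutant and 49 of 74 control secretory barcodes. Hp, haptoglobin, a haemoglobin-binding secreted protein (ENSMUSG00000031722; chromosome 8, 109575128 to 109579172), was at 4068 and 68.1 CPM in the mutant library (5.71 ± 0.07) and at 1012 and 109 CPM in the control library (3.11 ± 0.08). Cbr2, a carbonyl reductase of club cells (ENSMUSG00000025150; chromosome 11, 120729489 to 120732114), was at 6919 and 253 CPM (4.72 ± 0.04) and at 553 and 67.4 CPM (2.86 ± 0.11). These 3 genes were far above other Epcam-positive barcodes in both libraries, and each difference was larger in the mutant library. That order held with ciliated barcodes left out of the others, but the libraries then lay closer for each of these genes.

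Among the other genes highest in mutant secretory barcodes were Lypd2 (408 and 10.5 CPM, 4.35), Gsta3, a glutathione transferase (199 and 2.84 CPM, 4.03), Lrrc26, a potassium channel subunit (169 and 2.20 CPM, 3.88), Gpx2, a glutathione peroxidase (125 and 1.16 CPM, 3.59), the BMP receptor Bmpr1b (209 and 9.82 CPM, 3.47), Pir (210.0 and 13.5 CPM, 3.23) and Gsto1 (174 and 13.3 CPM, 2.98). In the control library the same genes differed by 2.31 for Lypd2, 1.42 for Gsta3, 2.24 for Lrrc26, 0.07 for Gpx2, 1.72 for Bmpr1b, 1.13 for Pir and 1.39 for Gsto1. Reg3g, an antibacterial lectin, also ranked high, but all 207 of its mutant UMIs were in 1 barcode. Scgb3a1, another airway secretoglobin, had 196 UMIs in 4 mutant barcodes, 64.8% of them in 1, and 0 in control secretory barcodes. Set against a floor of 3 counts over the group, Scgb3a1 was at least 69.8-fold higher in mutant secretory barcodes, but by way of these 4 barcodes alone.

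Several further genes ranked among the highest in control secretory barcodes and were at least 2-fold higher in mutant ones too. Trf, transferrin, was at 1835 CPM in secretory and 375 CPM in other barcodes of the mutant library (2.26), and at 389 and 43.0 CPM in those of the control library (2.91). Nupr1, a stress-induced chromatin protein, was at 798 and 207 CPM in the mutant (1.89) and 340 and 41.4 CPM in the control library (2.77). Cited1, a transcription co-regulator, differed by 2.45 in the mutant and 2.69 in the control library, Mycl by 1.69 and 2.48, Dapk2 by 1.26 and 2.21, and Ccnd2, a D-type cyclin, by 2.01 and 2.08. Ccnd2 was the most abundant of these 4 in the control library, at 963 and 220 CPM. Cldn10, a claudin of airway tight junctions, was at 1586 and 196 CPM in the mutant (2.95 ± 0.07) and 1288 and 287 CPM in the control library (2.13 ± 0.07).

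Club genes outside the 4 used for the choice were mostly higher. Of 31 listed genes, 26 were measured in the mutant library, which here means at least 10 CPM and 20 UMIs on the higher side, with 20 higher and 2 lower and a median log2 difference of 2.35. At this lower limit 2.87% of all 9096 genes were higher and 8.03% lower, with a median of -0.06. In the control library 22 were measured, 19 of them higher and 0 lower, with a median of 1.62, against 1.86% higher and 2.14% lower of 8987 genes and a median of 0.00. Beyond the genes already named, Aldh1a7 (407 and 62.3 CPM in the mutant, 507 and 144 CPM in the control library), Gsta4 (599 and 68.0 CPM; 462 and 163 CPM), Ces1d, a carboxylesterase (696 and 160 CPM; 300.4 and 75.7 CPM), and Por, the electron donor of cytochromes P450 (287 and 76.8 CPM; 162 and 50.6 CPM), were higher in both. Cyp2s1 and Pon1 were lower in mutant secretory barcodes, by -1.33 and -1.60.

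**Figure D3:**
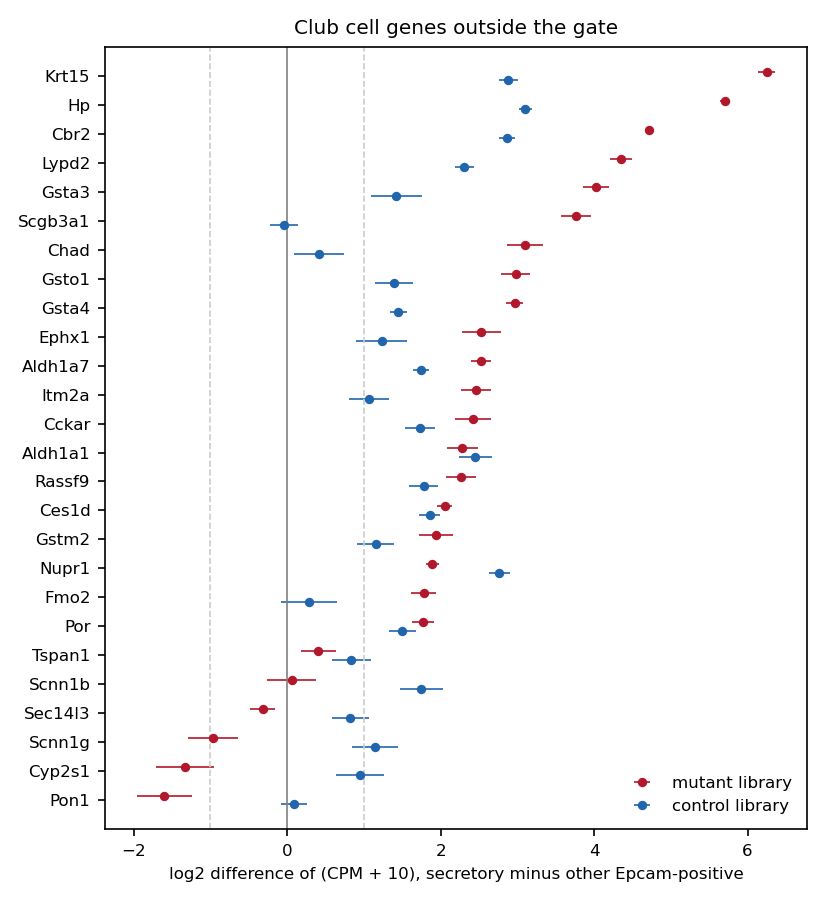
Log2 difference of (CPM + 10) between secretory and other Epcam-positive barcodes (x axis) for the club cell genes outside the 4 used for the choice, in the mutant (red) and control library (blue), with bars for the 95% half-width of counting error and dashed lines at 2-fold. Most genes lie right of the upper dashed line in both libraries, and Krt15, Hp, Cbr2 and Lypd2 lie farther right in the mutant library.

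Genes for drug and aldehyde metabolism, which share many members with the club list, were higher for 13 and lower for 1 of 17 measured in the mutant library (median 2.28), and higher for 11 and lower for 0 of 16 in the control library (median 1.41). The flavin monooxygenases were higher in the mutant library, in other as well as in secretory barcodes, and the part of intron counting in this was not tested. Fmo2 was at 224 and 58.1 CPM in secretory and other barcodes of the mutant library and at 10.8 and 7.07 CPM in those of the control library, with a UMI in 49 of 71 and 10 of 74 secretory barcodes. Fmo1 was at 71.1 and 4.77 CPM in the mutant and 2.54 and 1.06 CPM in the control library. Gstm1, a glutathione transferase, was higher in both, at 228 and 30.2 CPM and at 67.2 and 15.3 CPM.

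Airway transcription factors did not move as a group: of 30 listed, 3 were higher and 7 lower of 26 measured in the mutant library (median -0.12), and 4 higher and 4 lower of 25 in the control library (median 0.04). Hes1, a Notch target that represses ciliated fate (ENSMUSG00000022528; chromosome 16, 30064384 to 30067796), was at 420.0 CPM in secretory and 159 CPM in other barcodes of the mutant library (1.35 ± 0.12) and at 953 and 232 CPM in the control library (1.99 ± 0.08). Ehf, an ETS factor of airway epithelium, was at 68.4 and 3.81 CPM (2.51) and at 45.0 and 7.43 CPM (1.66). Sox2, the factor that marks proximal airway, was at 21.0 and 5.77 CPM in the mutant (0.98) and 70.4 and 10.98 CPM in the control library (1.94). The factors that were lower in both libraries were those of the distal lung, Sox9 (-1.44 in the mutant and -1.48 in the control library), Etv5 (-2.90 and -2.51), Id2 (-2.09 and -1.29) and Id3 (-2.30 and -1.34). Mouse Nkx2-1 was at 190 and 312 CPM in the mutant (-0.68) and 334 and 492 CPM in the control library (-0.54), with a UMI in 59 of 71 and 54 of 74 secretory barcodes.

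Of 17 Notch pathway genes 9 were measured in each library, with 3 higher and 0 lower. Nrarp, a feedback inhibitor that Notch induces, was at 37.3 and 1.44 CPM in the mutant (2.05) and 28.5 and 6.97 CPM in the control library (1.18), and Hes1 passed 2-fold in both as well. Notch3, a receptor, was at 44.0 and 10.3 CPM in the mutant library (1.41), and at 0.86 in log2 difference in the control library. The ligand Jag1 was at 15.6 and 17.4 CPM in the mutant library (-0.10) and at 45.6 and 11.3 CPM in the control library (1.38). Of the genes for retinoic acid, steroid and growth signalling, Rarb, a retinoic acid receptor, was at 112 and 16.3 CPM and at 53.2 and 10.4 CPM, and Rbp4, a retinol carrier, at 90.8 and 2.96 CPM and at 47.5 and 9.16 CPM; of 37 listed, 3 were higher and 5 lower of 25 measured in the mutant, and 3 higher and 4 lower of 24 in the control library.

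Wfdc2, a secreted airway protein of the protease inhibitor family, was the one host defence gene that was higher in both libraries, at 4871 and 632 CPM in the mutant (2.93) and 4117 and 1445 CPM in the control library (1.504). Several others of that list are also made by alveolar cells, among them Lyz2, Hc and Sftpa1. In all, 4 were higher and 8 lower of 17 measured in the mutant library, and 1 higher and 3 lower of 8 in the control library. Selenbp1, a selenium-binding protein, was at 2906 and 479 CPM and at 896 and 230 CPM, and Mgst1, a microsomal glutathione transferase, at 2056 and 325 CPM and at 840.4 and 313 CPM. Few mucous genes were measured: Agr3 was lower in the mutant library (-1.36), and Muc1 was at 186 and 177 CPM and at 88.1 and 127 CPM.

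Of 20 keratin and junction genes 14 were measured in each library, with 4 higher and 1 lower in the mutant and 2 higher and 1 lower in the control library. Krt19 was at 1751 and 733 CPM in the mutant (1.24) and 1845 and 579 CPM in the control library (1.66). Cldn18, the claudin of alveolar cells, was the one that was lower, by -3.03 in the mutant and -2.18 in the control library. Of 21 ion and water transport genes, 1 was higher and 6 lower of 15 measured in the mutant library, and 3 were higher and 3 lower of 14 in the control library. Aqp4, a water channel, was higher in both, at 41.3 and 6.05 CPM and at 53.2 and 5.03 CPM. The sodium channel subunit Scnn1b was at 31.8 and 30.2 CPM in the mutant (0.06) and 49.4 and 7.67 CPM in the control library (1.75).

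The genes lowest in secretory barcodes included many that mark alveolar cells. In the mutant library the lowest were Rtkn2 (10.8 and 392 CPM, -4.27), Col4a4 (-3.93) and Col4a3 (-3.51) of AT1 cells, the gas exchange cells, and Sftpc (6983 and 73988 CPM, -3.40), Scd1 (-3.37), Lyz2 (-3.30), Hc (-3.30) and S100g (-3.27) of AT2 cells, the surfactant cells. In the control library they were Sftpa1 (39.9 and 512 CPM, -3.39), Sftpc (3618 and 32041 CPM, -3.14), Napsa (-3.06), Dlk1 (-3.03), Egfl6 (-2.96), Areg (-2.94), Sftpb (-2.91) and Matn4 (-2.83). Of 22 AT2 genes, 19 of 22 measured were lower in the mutant (median -2.72) and 13 of 16 in the control library (median -2.47), with 0 higher in either. Of 19 AT1 genes, 15 of 19 were lower in the mutant (median -1.93) and 5 of 17 in the control library (median -0.67), with 0 higher. Of the 22 ciliated genes, 17 of which the choice did not use, 11 of 15 measured were lower in the mutant (median -2.00), and 1 was lower and 1 higher of 10 in the control library (median 0.06). The ciliated limit kept barcodes rich in ciliated transcripts out of the secretory group. It left 71 of them among the other mutant and 41 among the other control barcodes, so low values were built in and carry no test. With barcodes of both limits kept as secretory, the mutant median was 0.37.

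Most Sftpc RNA of the secretory barcodes lay in few of them. The 5 barcodes highest in Sftpc held 97.2% of its UMIs in mutant and 96.8% in control secretory barcodes, and the median barcode had 4 and 3 UMIs. Sftpc reached 2% of a barcode's UMIs in 4 mutant and 1 control barcodes, and Ager, an abundant AT1 gene, reached 10 UMIs in 27 mutant and 8 control barcodes. Ager was spread more widely, with 33.4% of its UMIs in the 5 highest mutant and 57.0% in the 5 highest control secretory barcodes. The median mutant secretory barcode had 74 UMIs of the AT2 list and 61 of the AT1 list, and the median control one 8 and 11.5. At a depth of 3000 UMIs Sftpc was found in 47.1% of mutant and 52.6% of control secretory barcodes (95.8% and 81.1% unthinned), at or near the 61.0% and 48.5% of endothelial barcodes, so that level reads as background. Ager was found in 61.8% of mutant and 22.8% of control secretory barcodes after thinning (88.7% and 51.4% unthinned), against 10.8% and 3.20% of endothelial barcodes.

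Markers of cells outside the epithelium were measured in the same sums. The 10 mesenchymal markers summed to 1590 CPM in mutant and 453 CPM in control secretory barcodes, with Mfap4 at 595 and 226 CPM, and to 1064 and 442 CPM in other Epcam-positive barcodes. The median secretory barcode had 3 UMIs of these markers in the mutant and 2 in the control library, so the mutant sum leans on few barcodes. The 8 endothelial markers summed to 293 CPM in mutant and 183 CPM in control secretory barcodes and to 194 and 174 CPM in the others. Among them Kdr, the VEGF receptor of endothelium, stood out, at 102 and 12.1 CPM in secretory and other barcodes of the mutant library (2.34) and at 65.3 and 15.7 CPM in the control library (1.55), with a UMI in 53 of 71 mutant and 30 of 74 control secretory barcodes, while Pecam1 and Cldn5 differed by less than 2-fold from the other barcodes. The part of mesenchymal and endothelial RNA in the differences between the libraries was not tested. Of the 8 immune markers 0 reached 10 CPM, and 0 of the 6 red cell markers were higher in either library.

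Mutant and control secretory barcodes were then compared directly. Scaled to total mouse UMIs, 231 of 1839 genes were higher (12.6%) and 260 lower (14.1%) in the mutant library. Scaling by a trimmed mean instead removes a shift of -0.25 on the log2 scale and gives 285 higher and 141 lower genes, so that 66.9% in place of 47.0% of the counted genes were higher. The matrices also came from different Cell Ranger versions, which cannot be told apart from the mutant, and the median over all genes was -0.23 but -0.51 over genes with at most 10 kb of intron. The genes ranked here are therefore those with at most 10 kb of intron: 60 of 842 such genes were higher (7.13%) and 165 lower (19.6%). In other Epcam-positive barcodes 427 of 2023 genes were higher (21.1%) and 484 lower (23.9%), or 66 of 860 (7.67%) and 317 (36.9%) of genes with little intron.

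Among the genes with little intron, the 10 highest in mutant secretory barcodes were Lyz1, Cxcl15, Lyz2, Retnla, Scgb3a1, Reg3g, Cbr2, Chil1, Sftpa1 and Sftpb, of which Reg3g and Scgb3a1 rest on 1 and 4 barcodes. Sftpb, a surfactant protein that club cells also make (ENSMUSG00000056370; chromosome 6, 72304610 to 72314371), was at 913 CPM (865 to 963) in mutant and 97.0 CPM (82.2 to 114) in control secretory barcodes (3.11 ± 0.22), with a UMI in 56 of 71 and 19 of 74. Cxcl15, the chemokine lungkine, was at 967 and 44.4 CPM (4.17 ± 0.29; 54 and 20 barcodes), Retnla at 225 and 5.07 CPM (3.96; 33 and 3 barcodes) and Chil1 at 113 and 1.90 CPM (3.37). Cbr2 differed by 3.62 ± 0.10, with barcode medians of 6570.5 CPM in the mutant and 336 CPM in the control library. Lyz1, which had 840 UMIs in 9 mutant barcodes and 0 in the control, was at least 299-fold higher, but 76.7% of its UMIs were in 1 barcode, as were 96.5% of those of Lyz2 and 40.3% of those of Sftpa1.

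Other Epcam-positive barcodes differed the same way for these genes, by 1.76 for Sftpb, 3.37 for Cxcl15, 4.33 for Retnla, 5.13 for Chil1, 1.77 for Cbr2, 6.84 for Lyz1, 6.89 for Lyz2 and 2.62 for Sftpa1. When the 28 mutant and 8 control secretory barcodes with alveolar markers (2% Sftpc or 10 Ager UMIs) were left out, the difference was 0.33 for Lyz1, 0.43 for Lyz2 and 0.94 for Sftpa1, but 3.06 for Sftpb, 3.39 for Cxcl15, 4.04 for Retnla, 2.55 for Chil1 and 3.04 for Cbr2. Sftpb was then at 868 CPM (804 to 935) in 43 mutant and 95.5 CPM (76.7 to 117) in 66 control barcodes. A limit of 10 Ager UMIs is reached sooner in a deep barcode, so this step does not tell alveolar RNA from depth. It also moved club genes of control secretory barcodes, Cbr2 from 553 to 835 CPM and Scgb3a2 from 9041 to 13996 CPM. In mutant ones Cbr2 went from 6919 to 6930 CPM and Scgb3a2 from 20159 to 22187 CPM. The surfactant collectin Sftpd (ENSMUSG00000021795; chromosome 14, 41172214 to 41185149), with 10519 bases of intron, was at 640.1 CPM (600.0 to 682) in mutant and 15.8 CPM (10.3 to 23.4) in control secretory barcodes, and without the alveolar-marked ones at 520 CPM (470.4 to 572) and 16.1 CPM (9.01 to 26.5).

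Detection at equal depth showed the same order. Of thinned secretory barcodes 70.6% of mutant (78.9% unthinned) and 10.5% of control (25.7% unthinned) had a UMI of Sftpb, against 7.37% and 4.42% of endothelial barcodes, and 60.3% and 5.26% had one of Sftpd (80.3% and 16.2% unthinned), against 0.575% and 0%. Cbr2 was found in 97.1% of mutant and 59.6% of control secretory barcodes (98.6% and 81.1% unthinned), against 1.15% and 0.221%. Gsta3, with 20729 bases of intron, was found in 41.2% and 3.51% (73.2% and 21.6% unthinned), against 0.313% and 0.110%.

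Of the 26 club genes measured 14 were higher and 1 lower in mutant than in control secretory barcodes, with a median of 1.18, where 8.71% of 8882 genes were higher and 8.68% lower with a median of -0.23. Hp (1.997), Krt15 (1.54), Fmo2 (3.49), Gsta3 (2.67) and Chad (77.2 and 4.44 CPM, 2.60) were among the higher and Cyp2s1 (-1.28) was the lower one. Gsta3, with 20729 bases of intron, is past the limit of 10 kb used for ranking. Of the 13 club genes measured within that limit 8 were higher and 1 lower (median 1.21), where 4.74% of 2892 such genes were higher and 14.5% lower. Lypd2 (408 and 395 CPM), Aldh1a7 (407 and 507 CPM) and Rassf9 (147 and 138 CPM) were nearly level. Of the 18 drug and aldehyde genes measured 8 were higher and 2 lower (median 0.83), and of the 16 host defence genes 12 were higher and 0 lower (median 2.76). Of AT2 genes 16 of 22 were higher and 0 lower (median 2.18) and of AT1 genes 6 of 15 higher and 1 lower (median 0.84). Without alveolar-marked barcodes, a choice that also depends on depth, the median was 0.94 for 13 AT2 genes, 0.77 for 13 AT1 genes, 2.55 for 11 host defence genes and 0.65 for 25 club genes.

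**Figure D4:**
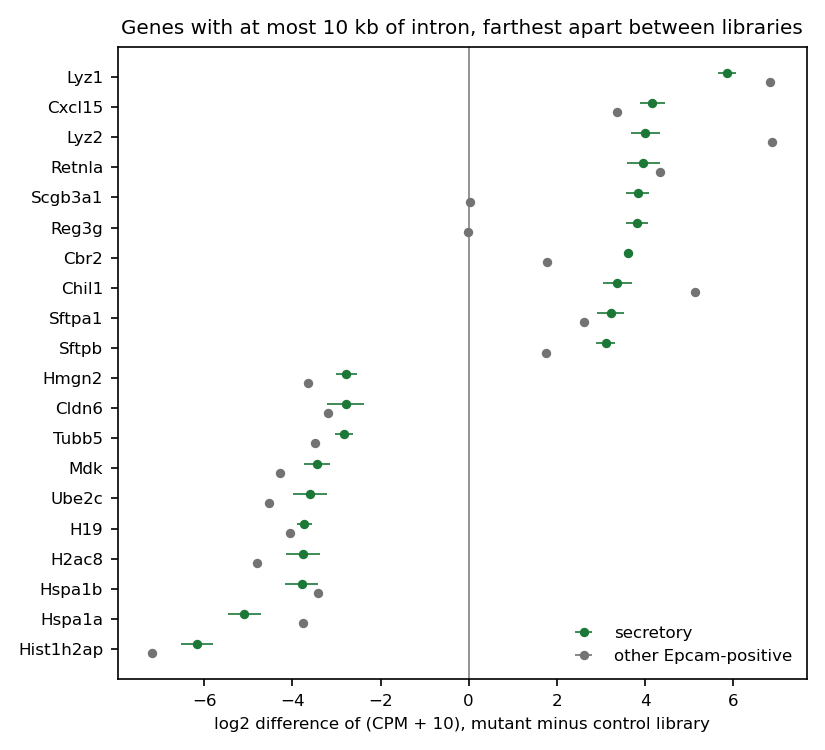
Log2 difference of (CPM + 10) between the mutant and control library (x axis) for the genes with at most 10 kb of intron that were farthest apart in secretory barcodes, in secretory (green) and other Epcam-positive barcodes (grey), with bars for the 95% half-width of counting error. In other Epcam-positive barcodes Reg3g and Scgb3a1 are near 0, at -0.01 and 0.03, and each of the other genes lies on the same side of 0 as in secretory barcodes.

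Among the lowest genes in mutant secretory barcodes were histone, division and fetal growth genes. H19, an imprinted fetal RNA (ENSMUSG00000000031; chromosome 7, 142575529 to 142578143), was at 190 CPM (168 to 213) in mutant and 2635 CPM (2555 to 2716) in control secretory barcodes (-3.73 ± 0.17). By barcode its range was 0 to 2025 CPM with a median of 83.2 in the mutant and 451.5 to 7705 CPM with a median of 2333 in the control library, and a UMI was found in 47 of 71 and all 74 barcodes. Only the upper end of the mutant range met the control range. Hist1h2ap, a histone gene expressed during DNA replication, was at 6.77 and 1187 CPM (-6.16), the growth factor Mdk at 48.1 and 618 CPM (-3.43) and the heat shock gene Hspa1a at 6.10 and 537 CPM (-5.09). Hspa1b (-3.79), H2ac8 (-3.76), Ube2c (-3.61), Tubb5 (-2.83), Cldn6 (-2.79) and Hmgn2 (-2.77) completed the lowest 10, and all were lower in other Epcam-positive barcodes too, among them H19 by -4.04, Hist1h2ap by -7.17 and Mdk by -4.28.

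Of 16 fetal growth genes 14 were measured, with 7 lower and 1 higher (median -1.27). For this list and the heat shock, immediate early, hypoxia and interferon lists below, the share over all 8882 genes was 8.71% higher and 8.68% lower. The median of all these genes was -0.23. The fetal growth median came under 2-fold in 5 alternatives, at -0.94 with 10 gate UMIs, -0.66 with 50 CPM added, -0.87 with no filter on low values, -0.90 with barcodes of both limits kept and -0.76 at 5000 to 40000 UMIs. Cdkn1c, an imprinted inhibitor of cell division, was at 990.3 and 4015 CPM (-2.01), Igf2 at 6.10 and 51.3 CPM (-1.93), Ptn at 2.71 and 84.9 CPM (-2.90) and Grb10 at 87.4 and 299 CPM (-1.67), while the imprinted RNA Meg3 was higher, at 892 and 181 CPM (2.24). Meg3 has more than 10 kb of intron, and the part of intron counting in its difference was not tested. Of the 5 fetal growth genes measured with little intron, 0 were higher and 4 lower (median -2.01). Of all 2892 genes with little intron 4.74% were higher and 14.5% lower (median -0.51). H19 and Cdkn1c were nonetheless higher in secretory than in other Epcam-positive barcodes of each library, H19 by 1.42 in the mutant and 1.10 in the control library, and Cdkn1c by 1.57 and 1.61. Of 17 heat shock and unfolded protein genes 0 were higher and 5 lower (median -0.50). Of 13 immediate early genes, which tissue dissociation can induce, 1 was higher and 0 lower (median -0.11), with Egr1 at 627 and 625 CPM. Hypoxia and glycolysis genes had 3 higher and 1 lower of 13, and interferon and antigen presentation genes 1 higher and 0 lower of 7.

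All 24 cell division genes were measured, and 23 were lower and 0 higher in mutant secretory barcodes (median -1.95). There 8.71% of 8882 genes were higher and 8.68% lower, or 4.74% and 14.5% of 2892 genes with little intron. In other Epcam-positive barcodes all 24 were lower (median -2.64), where 13.2% of 9972 genes were higher and 11.1% lower, or 4.87% and 20.7% of 3143 genes with little intron. Barcodes with at least 5 UMIs of Mki67 and Top2a together were 5 of 71 mutant (7.04%, 2.33 to 15.7) and 23 of 74 control secretory barcodes (31.1%, 20.8 to 42.9), beside 36 of 1463 (2.46%) and 414 of 926 (44.7%) other Epcam-positive barcodes. In the mutant library 94.8% of the Mki67 UMIs of secretory barcodes were in 5 of them and 66.0% in 1. After thinning, Mki67 was found in 4.41% of mutant and 33.3% of control secretory barcodes (12.7% and 41.9% unthinned) and in 2.28% and 34.7% of other Epcam-positive ones; endothelial barcodes, at 18.7% and 44.4%, also divide and give no background for it. Against other Epcam-positive barcodes of the same library, 5 of 15 cell division genes were higher and 0 lower in mutant secretory barcodes (median 0.77). There 2.87% of 9096 genes were higher and 8.03% lower. In control ones 0 of 24 were higher or lower (median -0.26), where 1.86% of 8987 genes were higher and 2.14% lower. Over 20 alternatives these medians ranged from -0.05 to 1.30 in the mutant and from -0.37 to 0.06 in the control library.

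Of the 26 airway transcription factors measured 10 were lower and 2 higher in mutant secretory barcodes (median -0.41, and -1.16 over those with little intron, where the median of all such genes was -0.51, with 4.74% higher and 14.5% lower). Hes1 was at 420.0 and 953 CPM (-1.16 ± 0.13) and was found in 52.9% of mutant and 86.0% of control thinned secretory barcodes (84.5% and 91.9% unthinned), against 28.4% and 41.4% of endothelial barcodes, which express it too. Foxa2, a forkhead partner of Nkx2-1, was at 33.9 and 150 CPM (-1.86), Sox4 at 50.8 and 253 CPM (-2.11), Id1 at 54.2 and 184 CPM (-1.59) and Sox2 at 21.0 and 70.4 CPM (-1.37). Cebpd was higher, at 353 and 91.3 CPM (1.84), as was Cebpa (1.08), both factors of differentiated epithelium. The ciliogenesis factors Foxj1 (3.39 and 41.2 CPM), Myb (8.81 and 60.8 CPM) and Ccno (11.5 and 46.3 CPM) had lower sums in mutant secretory barcodes. Foxj1 was found in a like share of barcodes, 5 of 71 mutant (7.04%) and 6 of 74 control ones (8.11%). Those 6 control barcodes had 78746 to 123937 mouse UMIs, where the deepest mutant one had 43022, so the Foxj1 difference rests on them. The part of such deep barcodes in Myb and Ccno was not tested. The signal Wnt4 was at 4.06 and 88.1 CPM (-2.80), with a UMI in 6 of 71 mutant and 35 of 74 control barcodes.

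To see where secretory barcodes differed between the libraries by more than other Epcam-positive barcodes did, the other barcodes' log2 difference was subtracted from theirs, so that what acts alike on both cancels. Of 2234 genes 80 had a difference of differences of at least 1 (3.58%) and 133 of at most -1 (5.95%). Krt15 stood out at 3.37 ± 0.17, with 1147 CPM in mutant and 387 CPM in control secretory barcodes but 5.21 and 43.8 CPM in the other barcodes. Gpx2 (3.53), Gsta3 (2.60) and Thbs1, the matrix protein thrombospondin (2.97), were also higher, beside Reg3g and Scgb3a1 with their few barcodes. With ciliated barcodes left out of the others, the values were 2.52 for Krt15, 3.37 for Gpx2, 2.43 for Gsta3 and 3.05 for Thbs1.

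The lowest differences of differences were those of alveolar genes that were higher in other Epcam-positive barcodes of the mutant library, Rtkn2 (-3.88), Hc (-3.47), S100g (-2.97), Scd1 (-2.90) and Lyz2 (-2.88), and of S100a6, a calcium-binding protein (-3.08). S100a6 was at 217 CPM in secretory and 636 CPM in other barcodes of the mutant library, and at 469 and 150 CPM in those of the control library. Of the lists, 12 of 26 club genes were larger and 5 smaller (median 0.78), where 1.82% of 10238 genes were larger and 5.09% smaller with a median of -0.06. The club median ranged from 0.46 to 1.59 over 20 alternatives. It leans on the barcodes that met both limits: Hp in other control barcodes was at 109 CPM with them and 14.2 CPM without them. With ciliated barcodes left out of the others, secretory barcodes were higher by 7.01 in the mutant and 6.00 in the control library for Hp. For Cbr2 these values were 4.75 and 4.11. Of 26 transcription factors 0 were larger and 0 smaller, and 9 of 24 cell division genes were larger and 0 smaller. The cell division median was 0.74 and ranged from 0.03 to 1.25 over 20 alternatives. Of the 97 Mki67 UMIs of mutant secretory barcodes, 64 were in 1 barcode that had 36 UMIs of the 4 genes of the choice. The part of that barcode in the other division genes was not tested.

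Among secretory barcodes of a library, levels varied widely, and their rank correlations over barcodes are a description that shares each barcode's depth. Scgb1a1 went with Hp at a Spearman rho of 0.55 over 71 mutant and 0.33 over 74 control barcodes, with Scgb3a2 at 0.39 and 0.44, and with Upk3a at 0.15 and 0.35. Of the genes compared, Hp had the highest rho in the mutant library and Scgb3a2 in the control library. With Cyp2f2 it was 0.36 and 0.10, with Gsta3 0.38 and 0.18, and with H19 -0.24 and -0.18. Upk3a went with Scgb3a2 (0.62 and 0.45) and Hp (0.46 and 0.50), and with Krt15 at 0.50 in the mutant and 0.04 in the control library. Depth itself went with Scgb3a2 at 0.14 in the mutant and -0.57 in the control library, and since a shallow barcode reaches 20 UMIs of the 4 genes only at a high CPM, the choice itself builds in a negative relation.

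**Figure D5:**
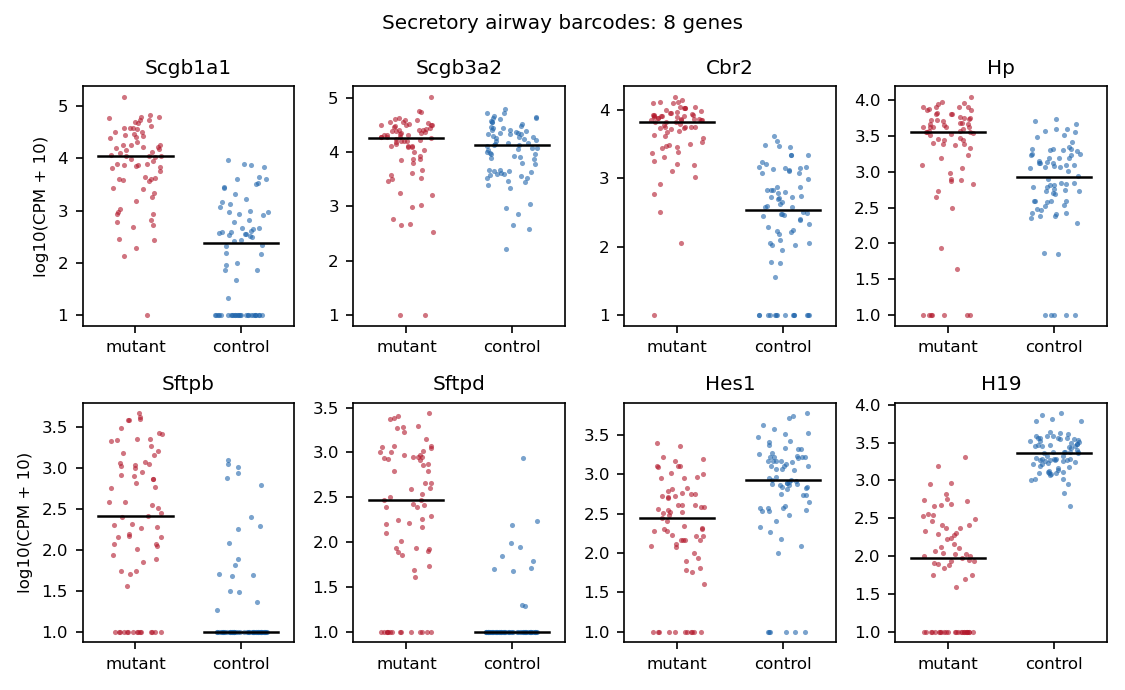
Level of 8 genes as log10(CPM + 10) (y axes) in each secretory barcode of the mutant (red, 71) and control library (blue, 74), with black lines at the medians. Scgb3a2 overlaps widely, Scgb1a1, Cbr2, Hp, Sftpb and Sftpd are higher in most mutant barcodes, and Hes1 and H19 are higher in most control barcodes.

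By barcode, Cbr2 ran up to 15505 CPM in the mutant and 4103 CPM in the control library, and Hp had medians of 3649 and 841 CPM with a UMI in 64 of 71 and 69 of 74 barcodes. Sftpd had a median of 285 CPM in the mutant library and 0 in the control library, where 12 of 74 barcodes had a UMI. Hes1 ran from 0 to 2523 CPM with a median of 267 in the mutant and from 0 to 5990 CPM with a median of 843 in the control library. The ranges overlapped for all 4 genes, most for Hp and Hes1.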

How the data were processed

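Both libraries were droplet single-cell RNA of lung, 1 mutant and 1 control. The authors deposited counts of UMIs per gene and barcode, whole and unscaled, made with Cell Ranger 7.0.1 for the mutant and 6.0.1 for the control library per the file headers; builds mm10 and rn6 and Seurat 4.3 are named per the submitters' processing notes. Whether introns were counted is not given in the sources used here.

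Counts were read with Python 3.11.15, numpy 2.4.6, scipy 1.17.1 and pandas 2.3.3, and plotted with matplotlib 3.10.9. UMIs were summed over barcodes, scaled to CPM of mouse UMIs, and compared as log2 differences after adding 10 CPM, with exact Poisson and Clopper-Pearson intervals at 95% (counting error only); the script was tested on simulated data. Endothelial barcodes had at least 3 UMIs of endothelial markers. Doublets were not removed; Scrublet in Scanpy 1.11.5 gave scores of 0.2 or more to 356 mutant and 154 control mouse barcodes, 3 and 4 of them secretory, and its automatic limit called 373 and 2. Gene positions and intron lengths were those of GENCODE vM21 (mm10).

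Named genes were, among genes of at least 100 CPM and 20 UMIs outside the choice, the 12 highest and 8 lowest in secretory against other Epcam-positive barcodes of each library, the 10 highest and 10 lowest between libraries at up to 10 kb of intron, the 6 highest and 6 lowest differences of differences, and list members of at least 10 CPM; mitochondrial, ribosomal, haemoglobin and unnamed genes were left out, as were Xist, Tsix and Y-linked genes, while other genes of chromosome X stayed in. Selenbp1 and Mgst1, outside these rules, were chosen after their values were seen, as was Kdr among the endothelial markers. Members and lists were chosen with earlier results of these data known. Alternatives covered the limits of the choice, species, mitochondrial share, genes, Epcam, doublets, depth, filters, pseudocount, scaling, weighting and intron length.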

Additional observations from a re-analysis of the deposited data

Results flagged for a closer look

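S100a6, a calcium-binding protein of many epithelia, was the gene whose difference between secretory and other Epcam-positive barcodes had opposite signs in the libraries while passing 2-fold in both. The log2 difference was -1.50 ± 0.15 in the mutant library, at 217 CPM in secretory and 636 CPM in other barcodes, and 1.58 ± 0.11 in the control library, at 469 and 150 CPM. A UMI of S100a6 was found in 50 of 71 mutant and 61 of 74 control secretory barcodes, with barcode medians of 91.9 and 424 CPM. With ciliated barcodes left out of the others, the difference of the differences was -3.58, against -3.08 with them. With 1 library per group this was not tested. Groups of 1 library gave no sample to set apart from others.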

How the results depend on the processing

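No paired analysis was possible because each group had 1 library, and for the same reason no replicate could be left out. Calls of 2-fold rest on sums of 1476260 mutant and 1577810 control UMIs, so genes under 10 CPM were beyond this depth, and control sums lean on a few deep barcodes. The secretory share was 4.63% in the mutant library, but 2.86% without alveolar-marked barcodes, 9.02% with 5 Epcam UMIs required and 13.7% after thinning, where the control share was 7.40% and the order of the libraries turned. In the control library it was 7.40%, but 9.235% with 10 and 5.34% with 50 gate UMIs, 9.39% with 5 Epcam UMIs and 10.2% with the barcodes that met both limits, a choice made after seeing the data. The higher and lower gene counts were 113 and 211 for secretory against other barcodes in the mutant library, 53 and 66 in the control library, 231 and 260 between libraries, and 80 and 133 for differences of differences. With a limit of 10 CPM they were 261 and 730, 167 and 192, 774 and 771, and 186 and 521, and with none 271 and 730, 167 and 192, 807 and 777, and 191 and 530. Over genes with at most 10 kb of intron they were 55 and 58, 23 and 30, 60 and 165, and 52 and 28. With 50 CPM added, 140 genes were lower in the mutant library, 124 lower between libraries, and 40 and 79 differences of differences were counted. Thinning gave 116 lower genes in the control library and 175 and 219 differences of differences, and trimmed-mean scaling 141 genes lower between libraries. With barcodes of both limits kept, 101 genes were higher in the control library, and with barcodes of 5000 to 40000 UMIs, also chosen after seeing the data, 100 were lower there. The median difference of differences of the red cell markers was -1.13, but 0.69 after thinning and 0.051 at 5000 to 40000 UMIs, and that of the ciliated genes in the mutant library -2.00, but 0.37 with barcodes of both limits kept. The causes were not tested, except that fewer or more genes were compared under the intron and CPM limits. Of 72 values of named genes 0 reversed under any alternative, and between 69 and 72 stayed past 2-fold in each (54 of 54 with little intron). Lyz2 between libraries dropped to 0.43 without alveolar-marked barcodes, 0.44 without high doublet scores and 0.77 at 5000 to 40000 UMIs. The club gene median ranged from 1.43 to 2.98 in the mutant library, from 1.11 to 1.998 in the control library and from 0.65 to 1.43 between libraries over 20 alternatives.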
